A study of Mus musculus with 9 samples.

Results

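The aminoacyl-tRNA synthetases were taken by gene symbol from the deposited table: 36 of its 16876 genes matched, 20 that serve the cytosol and 16 that serve mitochondria. All 36 passed the filter on low counts. RNA was measured in natural killer (NK) cells grown from femur marrow of C57BL/6 mice, in 3 groups of 3 libraries. SIS3_TGFb cells received SIS3, an inhibitor of the transcription factor Smad3, at 10 µM for 3 h and then TGF-β1 at 5 ng/mL for 3 h. TGFb cells received the same TGF-β1 without SIS3, and Ctrl cells received neither. All groups shared the same 2 culture steps. The first lasted 4 days and held IL-15 at 50 ng/mL, SCF at 30 ng/mL, Flt3L at 10 ng/mL and IL-7 at 1 ng/mL, and the second lasted another week and held IL-2 at 20 ng/mL beside IL-15 at 50 ng/mL. Titles of the SIS3_TGFb libraries name SIS3 alone, while their treatment text and the series design add TGF-β1. No group received SIS3 without TGF-β1, so an effect of SIS3 by itself and an effect on the TGF-β1 response cannot be told apart. The sources used here give no solvent control and no age of the mice. They also do not say whether replicates came from separate mice or cultures, so a p-value covers the spread among the 9 libraries alone, which may be technical.

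Each synthetase joins an amino acid to its matching tRNA, and the charged tRNA then brings that amino acid to the ribosome. Nuclear genes encode a set for the cytosol and a largely separate set, mostly with the suffix 2, that is imported into mitochondria. Gars and Kars make enzymes for both compartments and are counted here with the cytosolic set. Several cytosolic synthetases sit together in the multisynthetase complex. Many cytosolic synthetase genes are known targets of ATF4, the transcription factor of the amino acid and integrated stress responses, and NK cells raise amino acid uptake and protein synthesis when cytokines activate them.

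Library totals lay between 15714973 and 16718673 expected counts (estimated reads per gene), and those of SIS3_TGFb (16483474 to 16718673) were all above those of Ctrl (16118249 to 16435018). Counts of cytosolic members were between 120 and 8615 per library (median 2283), and those of mitochondrial members between 80.8 and 1036 (median 210.5). The median SE of the log2 change in SIS3_TGFb versus TGFb was 0.093 for mitochondrial and 0.040 for cytosolic members. Pmepa1, a known TGF-β target, checked the TGF-β1 labels: it averaged 121 ± 6.19 CPM in SIS3_TGFb, 137 ± 4.80 CPM in TGFb and 0.661 ± 0.205 CPM in Ctrl (SD, n = 3; CPM is the count relative to the library size after TMM scaling). Pmepa1 changed by log2 -0.18 ± 0.047 in SIS3_TGFb versus TGFb, and how far SIS3 blocked Smad3 was not tested. The summed NK cell markers (14 genes) ran from 17280 to 17520 CPM in SIS3_TGFb and from 15930 to 17350 CPM in TGFb. In Ctrl they ran from 20770 to 21890 CPM. Among these markers Gzmb averaged 7353 ± 237 CPM in SIS3_TGFb, 5622 ± 311 CPM in TGFb and 8278 ± 358 CPM in Ctrl. Ncr1 averaged 77.4, 39.5 and 151 CPM in the same groups. Summed macrophage markers (12 of 12 in the table) ran from 928 to 1438 CPM in SIS3_TGFb, from 890 to 1238 CPM in TGFb and from 1176 to 1492 CPM in Ctrl, and dendritic cell markers (12 genes) from 559 to 953, from 507 to 777 and from 621 to 851 CPM in the same groups. Summed mast cell and basophil markers stayed between 451 and 529 CPM, neutrophil markers between 220 and 298 CPM, T cell markers between 15.4 and 33.0 CPM and erythroid markers between 9.45 and 50.8 CPM. B cell and stromal markers summed to below 3 CPM in every library, with Pax5 at 0 in SIS3_TGFb and Ctrl and Col3a1 at 0 in SIS3_TGFb and TGFb. The part of these cell types in the synthetase changes was not tested, and in bulk RNA fewer cells of a type and less RNA per cell cannot be told apart. TGFb replicate 3 lay away from TGFb replicates 1 and 2 on the principal components 2 and 3, and counts without it are given beside the results.

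SIS3 before TGF-β1 was accompanied by higher transcript levels of most cytosolic synthetases. In SIS3_TGFb versus TGFb, 15 of the 20 cytosolic members rose, 2 fell and 3 did not pass the test, at an adjusted p below 0.05 in edgeR's quasi-likelihood test. Over all 12212 genes tested 41.8% passed in that comparison, with 21.2% higher and 20.6% lower. The cytosolic median log2 change was 0.53, against 0.01 for all genes tested, with a range from -0.29 (Qars) to 1.00 (Cars). Among the mitochondrial members 5 of 16 rose, 0 fell and 11 did not pass, with a median of 0.04, the lowest being Lars2 (-0.19). No mitochondrial member was lower at an unadjusted p below 0.05 either, and DESeq2 also called 0 lower. The libraries of the groups did not overlap for 18 cytosolic and 9 mitochondrial members, where 51.4% of all genes tested had libraries that did not overlap. Leaving out TGFb replicate 3 left 15 cytosolic rises, 1 cytosolic fall and 5 mitochondrial rises.

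**Figure D1:**
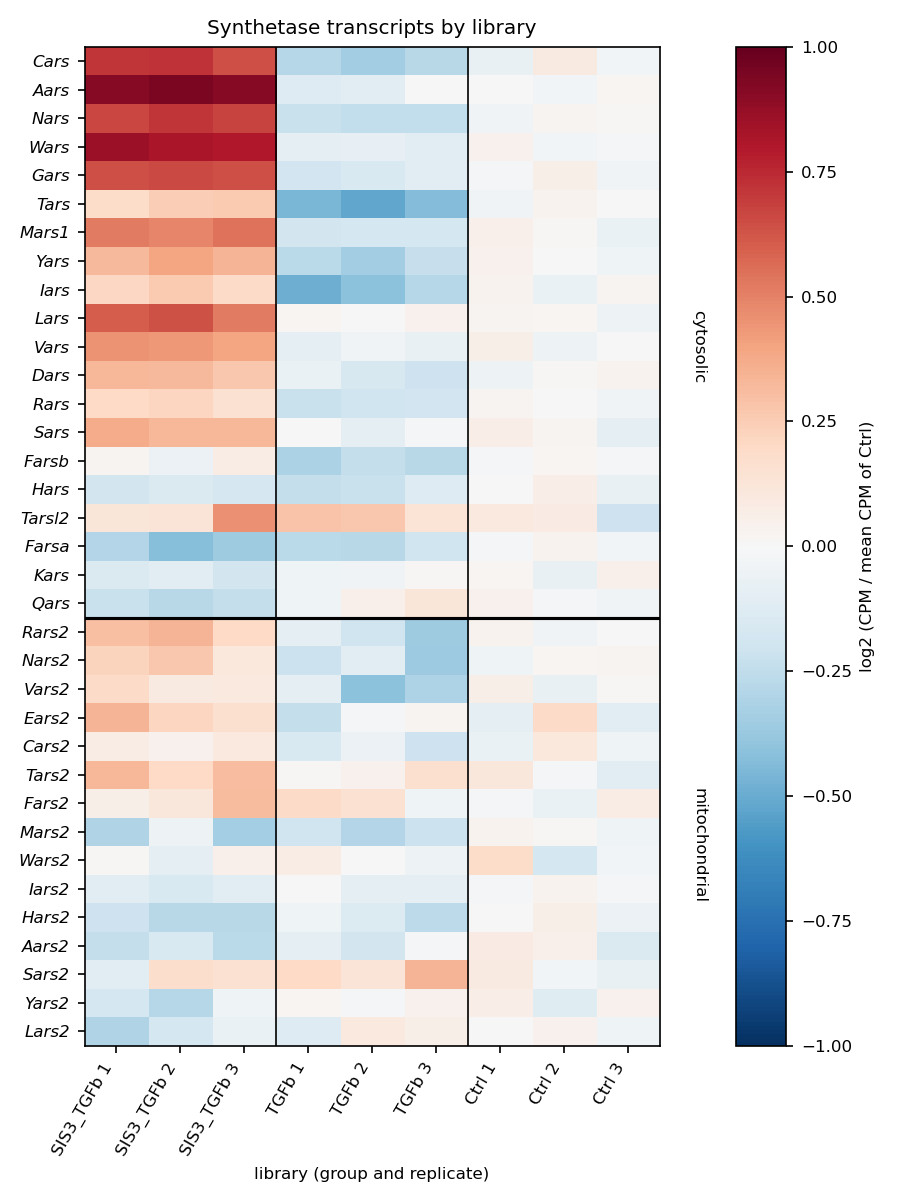
Level of 35 of the synthetases in each of the 9 libraries, as log2 of CPM over the mean CPM of Ctrl (colour, -1 to 1); rows are genes, cytosolic above the line and mitochondrial below it, ordered by the change between SIS3_TGFb and TGFb. The 3 SIS3_TGFb libraries are red for the upper cytosolic rows, up to Aars and Wars, while Qars, Kars and Farsa at the foot of the cytosolic block are blue there.

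The steepest changes were in the alanine and cysteine enzymes. Aars had 491, 501 and 489 CPM in SIS3_TGFb, 239, 241 and 262 CPM in TGFb, and 262, 256 and 264 CPM in Ctrl. All SIS3_TGFb libraries lay above every other library, and TGFb and Ctrl overlapped. Aars rose by 1.00 ± 0.039 (SE) on the log2 scale in SIS3_TGFb versus TGFb (adjusted p = 3.0e-11), and in TGFb versus Ctrl its log2 change was -0.08 ± 0.039 (adjusted p = 0.14). Cars had 133, 133 and 126 CPM in SIS3_TGFb, 66.1, 63.3 and 66.7 CPM in TGFb, and 76.8, 86.1 and 79.2 CPM in Ctrl. Its 3 groups did not overlap, with SIS3_TGFb highest and TGFb lowest. Cars rose by 1.00 ± 0.047 on the log2 scale in SIS3_TGFb versus TGFb (adjusted p = 2.6e-10) and fell by 0.30 ± 0.048 in TGFb versus Ctrl (adjusted p = 1.1e-04).

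Nars, Wars and Gars, which charge the tRNAs for asparagine, tryptophan and glycine, followed. Nars had 288, 297 and 290 CPM in SIS3_TGFb, 155, 153 and 153 CPM in TGFb, and 177, 185 and 182 CPM in Ctrl, and rose by log2 0.92 ± 0.034 over TGFb (adjusted p = 1.9e-11). Wars had 247, 239 and 238 CPM in SIS3_TGFb, 128, 129 and 126 CPM in TGFb, and 141, 134 and 134 CPM in Ctrl, and rose by log2 0.92 ± 0.035 (adjusted p = 2.8e-11). Gars had 492, 496 and 492 CPM in SIS3_TGFb, 275, 282 and 292 CPM in TGFb, and 310, 327 and 306 CPM in Ctrl, and rose by log2 0.80 ± 0.036 (adjusted p = 1.9e-10). In each of these 3 genes every SIS3_TGFb library was above every Ctrl library, and every Ctrl library was above every TGFb library.

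Tars, Mars1, Yars and Iars rose by less than 1 log2 unit and also had TGFb levels under those of Ctrl. Tars, the threonine enzyme, had 135, 142 and 143 CPM in SIS3_TGFb, 86.6, 82.9 and 88.3 CPM in TGFb, and 116, 122 and 119 CPM in Ctrl, a rise of log2 0.70 ± 0.039 over TGFb (adjusted p = 2.0e-09). Mars1, the methionine enzyme, had 172, 169 and 175 CPM in SIS3_TGFb, against 106 CPM in each TGFb library and 124, 121 and 115 CPM in Ctrl, a rise of log2 0.70 ± 0.037 (adjusted p = 1.2e-09). Yars, the tyrosine enzyme, had 134, 141 and 136 CPM in SIS3_TGFb, 89.2, 84.4 and 91.6 CPM in TGFb, and 110, 108 and 104 CPM in Ctrl, a rise of log2 0.63 ± 0.041 (adjusted p = 1.1e-08). The groups were again apart in all of these. Iars, the isoleucine enzyme of the multisynthetase complex, had 280, 290 and 278 CPM in SIS3_TGFb, 173, 183 and 200 CPM in TGFb, and 249, 231 and 248 CPM in Ctrl, a rise of log2 0.61 ± 0.048 (adjusted p = 9.0e-08). Its TGFb libraries were the most spread of this set, with replicate 3 the highest, and still all lay under Ctrl.

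Further cytosolic rises over TGFb were smaller. The log2 change was 0.57 ± 0.038 for Lars (leucine), 0.49 ± 0.038 for Vars (valine), 0.45 ± 0.045 for Dars (aspartate), 0.39 ± 0.037 for Rars (arginine), 0.38 ± 0.042 for Sars (serine, and the enzyme that also starts selenocysteine synthesis) and 0.29 ± 0.046 for Farsb. Hars, the histidine enzyme, and Tarsl2, a second threonine enzyme, had log2 changes of 0.03 ± 0.045 and 0.01 ± 0.120, and Farsa of -0.11 ± 0.050 (adjusted p = 0.085).

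Kars and Qars went the other way. Qars, the glutamine enzyme, had 145, 140 and 144 CPM in SIS3_TGFb, 164, 176 and 184 CPM in TGFb, and 175, 168 and 165 CPM in Ctrl. Its SIS3_TGFb libraries were the lowest of all, and it fell by log2 0.29 ± 0.043 versus TGFb (adjusted p = 6.4e-05). Kars, the lysine enzyme, had 177, 182 and 172 CPM in SIS3_TGFb, 190, 191 and 197 CPM in TGFb, and 198, 186 and 202 CPM in Ctrl. It fell by log2 0.12 ± 0.039 (adjusted p = 0.017), with every SIS3_TGFb library under every TGFb library. With no scaling factors that call was lost (adjusted p = 0.41), and it was also lost when SIS3_TGFb replicate 1 (0.051), SIS3_TGFb replicate 3 (0.061) or TGFb replicate 3 (0.051) was left out.

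**Figure D2:**
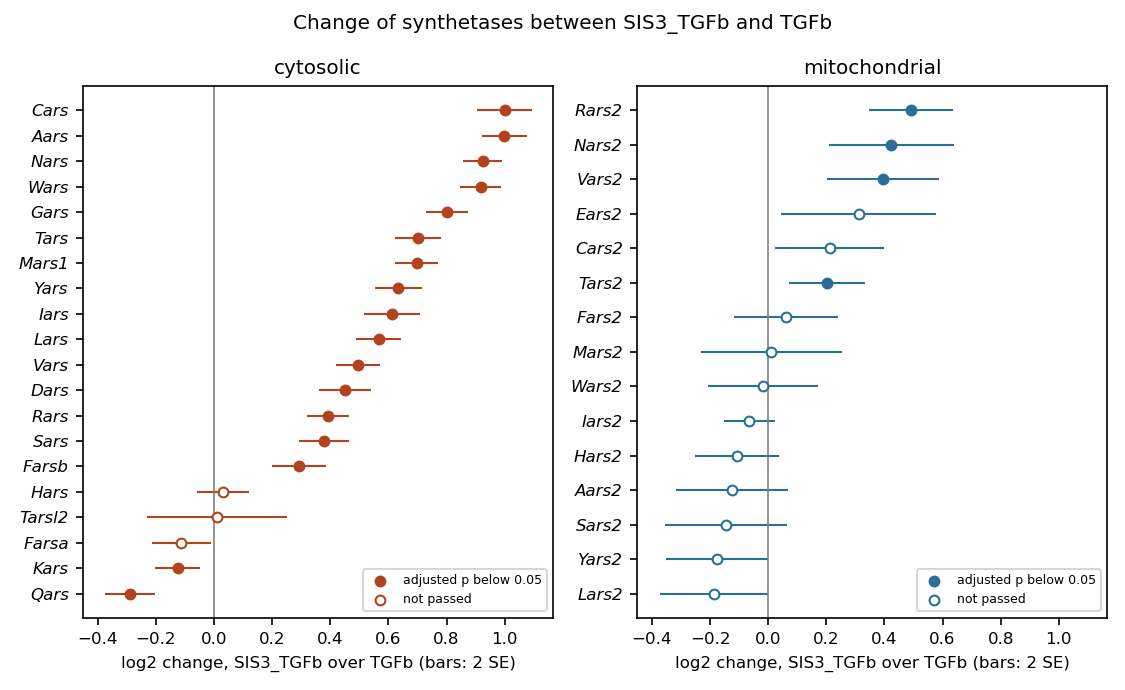
Log2 change of 35 of the synthetases in SIS3_TGFb over TGFb (points; bars are 2 SE on each side), cytosolic members on the left and mitochondrial members on the right; filled points passed an adjusted p of 0.05. Cytosolic changes run down from 1.00 with short bars, and those of the mitochondrial members shown run down from 0.49 with longer bars.

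By known assembly and fold, the rises were spread over the cytosolic set. Of the 7 members that belong to the multisynthetase complex 5 rose and 2 fell (median log2 change 0.45), the 2 being Kars and Qars. Of the 13 outside the complex 10 rose and 0 fell (median 0.63), with 0 called lower by edgeR and Farsa lower at an unadjusted p below 0.05. Of the 9 enzymes with a class I catalytic fold 8 rose and 1 fell (median 0.61), and of the 11 with a class II fold 7 rose and 1 fell (median 0.38). The difference between these subsets was not tested.

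Phenylalanine is charged in the cytosol by an enzyme of paired alpha and beta subunits, encoded by Farsa and Farsb. The log2 ratio of Farsb to Farsa CPM was 0.50, 0.55 and 0.61 in SIS3_TGFb, 0.13, 0.22 and 0.10 in TGFb, and 0.18, 0.16 and 0.19 in Ctrl. SIS3_TGFb lay apart from both other groups, whose values overlapped. The mean ratio was 0.40 log2 units higher in SIS3_TGFb than in TGFb (two-sided exact permutation p = 0.1, the smallest that 3 against 3 libraries allow). Protein was not measured.

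Promoters are shown for the risen members that carry a copy of TGATGNAA, the core letters of the C/EBP-ATF composite element to which ATF4 binds. The letters were searched on both strands from 250 bases before to 50 bases after the start site given by RefSeq for GRCm38.p6, where 27 of the 36 members have an entry. The stretch printed runs from 130 bases before the start to 30 bases after it, on the strand of the gene, and capitals mark the motif or its reverse complement, TTNCATCA. For Aars and Yars the start used lies 6064 and 169 bases inside the outer bounds of the gene.
Aars (chr8:111033712-111033871, + strand): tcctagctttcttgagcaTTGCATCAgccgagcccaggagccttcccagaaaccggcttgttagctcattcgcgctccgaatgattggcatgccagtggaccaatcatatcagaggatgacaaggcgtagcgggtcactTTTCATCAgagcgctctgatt
Gars (chr6:55037871-55038030, + strand): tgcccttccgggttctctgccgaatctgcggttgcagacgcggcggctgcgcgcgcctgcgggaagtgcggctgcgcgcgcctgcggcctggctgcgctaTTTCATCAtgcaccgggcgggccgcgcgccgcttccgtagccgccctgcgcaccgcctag
Tars (chr15:11399629-11399788, - strand): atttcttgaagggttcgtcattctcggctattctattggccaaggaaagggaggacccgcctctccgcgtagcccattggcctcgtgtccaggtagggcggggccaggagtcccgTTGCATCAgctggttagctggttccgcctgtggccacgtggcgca
Yars (chr4:129189773-129189932, + strand): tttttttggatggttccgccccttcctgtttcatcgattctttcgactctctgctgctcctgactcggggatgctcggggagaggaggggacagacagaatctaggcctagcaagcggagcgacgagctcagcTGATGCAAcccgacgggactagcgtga
Iars (chr13:49682000-49682159, + strand): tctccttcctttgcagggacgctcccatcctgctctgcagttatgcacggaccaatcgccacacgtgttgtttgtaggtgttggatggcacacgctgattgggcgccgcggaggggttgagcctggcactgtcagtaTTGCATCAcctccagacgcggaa
Counted from the start site as 1, the copies lie at -112 to -105 and 10 to 17 in Aars, -30 to -23 in Gars, -15 to -8 in Tars, 4 to 11 in Yars and 8 to 15 in Iars. Those of Aars, Gars, Tars and Iars read on the strand opposite to the gene and that of Yars on the same strand. The members that fell, Kars and Qars, had no copy and are shown for contrast over the same stretch.
Kars (chr8:112011325-112011484, - strand): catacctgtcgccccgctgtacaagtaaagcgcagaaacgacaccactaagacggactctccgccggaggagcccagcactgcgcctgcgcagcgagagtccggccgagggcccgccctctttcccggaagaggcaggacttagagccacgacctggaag
Qars (chr9:108507875-108508034, + strand): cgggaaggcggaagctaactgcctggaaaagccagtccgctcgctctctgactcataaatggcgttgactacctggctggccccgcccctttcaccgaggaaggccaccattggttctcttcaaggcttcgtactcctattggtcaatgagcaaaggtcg
In all, 5 of the 13 cytosolic members with an entry held the motif (38.5%), against 3.97% of all 32851 promoters of the table and 2.82% of the 9816 tested genes with an entry. The 5 were among 9 risen cytosolic members with an entry, while 0 of the 4 that did not rise and 0 of the 14 mitochondrial members held it. Cars, Hars, Lars, Nars, Rars, Vars, Wars and Hars2 were among the members with no entry. A match to letters is a description and not a binding site or a cause, and the search was chosen with the rises known.

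The mitochondrial rises over TGFb included Rars2, Nars2, Vars2 and Tars2. Rars2 (arginine) had 27.2, 28.1 and 25.4 CPM in SIS3_TGFb, 20.7, 19.3 and 17.3 CPM in TGFb, and 22.7, 21.6 and 22.1 CPM in Ctrl, a rise of log2 0.49 ± 0.072 (adjusted p = 6.2e-05). Its 3 groups were apart, in the same order as for Cars.

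Nars2 (asparagine) had 9.57, 9.88 and 8.82 CPM in SIS3_TGFb, 7.08, 7.56 and 6.39 CPM in TGFb, and 7.95, 8.32 and 8.34 CPM in Ctrl, a rise of log2 0.42 ± 0.108 (adjusted p = 0.0053). Vars2 (valine) had 13.6, 12.7 and 12.8 CPM in SIS3_TGFb, 11.1, 8.97 and 9.65 CPM in TGFb, and 12.4, 11.3 and 12 CPM in Ctrl, a rise of log2 0.39 ± 0.097 (adjusted p = 0.0040). SIS3_TGFb stood above the other libraries in both. Tars2 (threonine) had 41.1, 37.5 and 40.5 CPM in SIS3_TGFb, 33.1, 33.8 and 36.7 CPM in TGFb, and 35.5, 32.2 and 30.5 CPM in Ctrl, and its log2 change of 0.20 ± 0.065 passed (adjusted p = 0.021) with a margin of less than 1 CPM between the groups. The Tars2 call was lost in DESeq2 (adjusted p = 0.084) and when SIS3_TGFb replicate 1 (0.082), SIS3_TGFb replicate 3 (0.055), TGFb replicate 1 (0.084) or TGFb replicate 2 (0.071) was left out. Ears2, the glutamate enzyme that serves both glutamate and glutamine tRNAs in mitochondria, had 7.44, 6.80 and 6.56 CPM in SIS3_TGFb, 4.99, 5.80 and 5.99 CPM in TGFb, and 5.49, 6.72 and 5.42 CPM in Ctrl, and did not pass (log2 0.31 ± 0.134, adjusted p = 0.074). The other 10 that did not pass had log2 changes from -0.19 (Lars2) to 0.21 (Cars2). Intervals of 2 SE on each side reached at most 0.40 among those 10, for Cars2, which with Ears2 and the cytosolic Hars passed when no scaling factors were used (adjusted p = 0.022, 0.025 and 0.034).

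Summed over members, cytosolic synthetases took 4063, 4086 and 4012 CPM in SIS3_TGFb, 2713, 2715 and 2815 CPM in TGFb, and 3068, 3040 and 2982 CPM in Ctrl. Mitochondrial members together took 283, 278 and 285 CPM in SIS3_TGFb, 268, 262 and 261 CPM in TGFb, and 280, 274 and 270 CPM in Ctrl. All 3 SIS3_TGFb cytosolic sums lay above every other library and all 3 TGFb sums below every Ctrl sum. The mitochondrial sums lay between 261 and 285 CPM over all 9 libraries. Their TGFb sums were also below every Ctrl and every SIS3_TGFb sum, while SIS3_TGFb and Ctrl overlapped. The ratio of the sums was 14.4 ± 0.308 in SIS3_TGFb, 10.4 ± 0.328 in TGFb and 11.0 ± 0.0839 in Ctrl (SD, n = 3). These sums are not per length, so the ratio is compared between groups and says nothing of molecules per compartment.

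Of 17 pairs of a cytosolic and a mitochondrial enzyme for the same amino acid (15 amino acids), the cytosolic member had the higher log2 change in 13 and the lower in 4, with a median difference of 0.50. For alanine the log2 ratio of Aars to Aars2 was 5.60, 5.55 and 5.63 in SIS3_TGFb, 4.41, 4.52 and 4.47 in TGFb, and 4.37, 4.38 and 4.62 in Ctrl, a difference of 1.12 ± 0.104 log2 units between SIS3_TGFb and TGFb. The difference was 0.94 ± 0.102 for Wars with Wars2, and it was -0.10 for Rars with Rars2, where both members rose. In a two-sided exact permutation test of the ratio over the libraries, 10 of the 17 pairs reached 0.1. That is the smallest p that this design allows, so no pair could pass the threshold for an adjusted p, whatever its values. Adjusted over the pairs the values ran from 0.17 to 0.6, and the test cannot decide whether a pair differed between the groups.

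**Figure D3:**
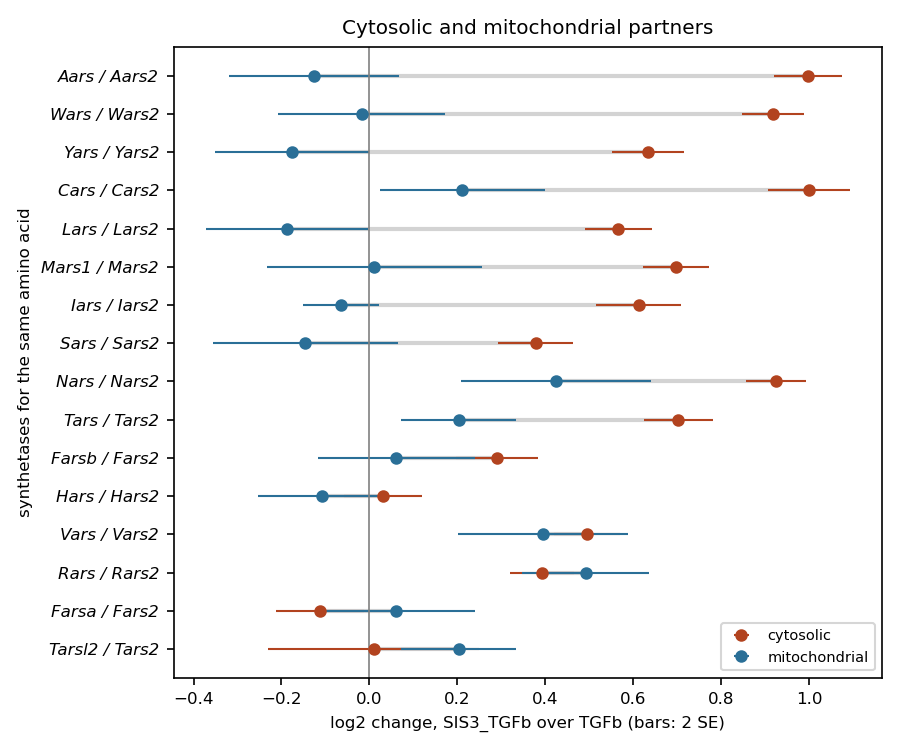
Log2 change in SIS3_TGFb over TGFb of the cytosolic and the mitochondrial enzyme for the same amino acid in 16 pairs (points; bars are 2 SE on each side; a grey line joins each pair), ordered by their difference. The cytosolic point lies to the right in the upper 13 pairs, farthest for Aars and Aars2, and the points lie close together for the valine and arginine pairs.

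TGF-β1 alone was accompanied by small falls of most cytosolic synthetases. In TGFb versus Ctrl 12 of 20 cytosolic members fell, 0 rose and 8 did not pass, where 34.3% of all genes tested passed, 16.4% lower and 17.9% higher. Mitochondrial members fell in 2 of 16 cases, with 0 rises, and that share of falls was not above the 16.4% of all genes tested. At an unadjusted p below 0.05 the rises in edgeR were 0 in both sets, and DESeq2 called 0 rises in either set, with 11 cytosolic and 0 mitochondrial falls. Median log2 changes were -0.17 for cytosolic, -0.08 for mitochondrial and -0.00 for all genes tested. The libraries did not overlap for 14 cytosolic and 6 mitochondrial members, against 45.0% of all genes tested. Without TGFb replicate 3 the falls numbered 12 cytosolic and 1 mitochondrial.

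Tars fell most, by log2 0.47 ± 0.040 (adjusted p = 1.3e-07), followed by Iars, by 0.39 ± 0.048 (8.7e-06), Cars, by 0.30 ± 0.048, Yars, by 0.28 ± 0.042 (6.0e-05), Farsb, by 0.27 (2.4e-04), Farsa, by 0.25 (8.9e-04), and Nars, by 0.24 ± 0.034 (4.4e-05). Smaller falls were those of Rars (0.20), Hars (0.20), Mars1 (0.18), Gars (0.15) and Dars (0.14, adjusted p = 0.025). The Dars call was lost in DESeq2 (0.057) and without Ctrl replicate 2 or 3 or TGFb replicate 2 or 3 (0.068 to 0.092). Aars, Wars and Vars did not pass here, with log2 changes of -0.08, -0.09 and -0.07, and passed with upper-quartile factors (adjusted p = 0.029, 0.0063 and 0.028), Aars also without TGFb replicate 3 (0.015).

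Rars2 fell by log2 0.21 ± 0.075 (adjusted p = 0.040) and Vars2 by 0.27 ± 0.098 (0.048). Both calls are close to the threshold: DESeq2 gave adjusted p of 0.12 and 0.15. The Rars2 call was lost without any single Ctrl library, without TGFb replicate 2 or 3 and without SIS3_TGFb replicate 1. The Vars2 call was lost without any single library other than TGFb replicate 1. Sars2, the mitochondrial serine enzyme, had 8.86, 10.8 and 10.6 CPM in SIS3_TGFb, 11.0, 10.4 and 12 CPM in TGFb, and 10.2, 9.37 and 9.07 CPM in Ctrl, where TGFb lay above Ctrl without overlap but did not pass (log2 0.22 ± 0.107, adjusted p = 0.12).

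Against untreated cells, most cytosolic synthetases were higher after SIS3 with TGF-β1, and the share that fell was not above that of all genes tested. In SIS3_TGFb versus Ctrl 14 cytosolic members rose and 4 fell (Farsa, Qars, Hars and Kars, by log2 0.36, 0.25, 0.16 and 0.14), where 53.9% of all genes tested passed, 29.0% higher and 24.9% lower. With no scaling factors the Kars call was lost (adjusted p = 0.073). The median cytosolic log2 change was 0.33, against 0.02 for all genes tested, and the largest rises were Aars (0.92), Wars (0.83), Cars (0.69), Nars (0.69), Gars (0.65), Lars (0.59) and Mars1 (0.52). Libraries did not overlap for 19 of the 20, where 61.1% of all genes tested did not. Among mitochondrial members 3 rose, Rars2 and Tars2 among them (0.28 each), and 2 fell (Hars2 by 0.25 and Iars2 by 0.13). The Iars2 call was lost with no scaling factors (adjusted p = 0.25), in DESeq2 (0.053) and without Ctrl replicate 2 (0.075) or SIS3_TGFb replicate 2 (0.073). Any 2 of the comparisons share a group of libraries, so their values stand side by side and are not independent.

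**Figure D4:**
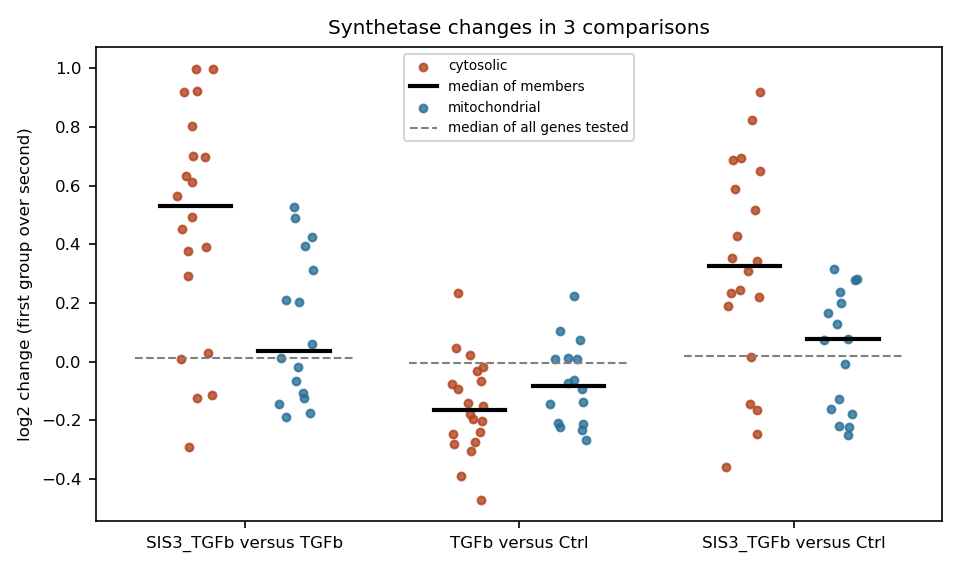
Log2 change of each cytosolic and each mitochondrial synthetase in the 3 comparisons (points, with small sideways scatter; black bars are the class medians, dashed lines the median of all genes tested). Cytosolic medians are 0.53, -0.17 and 0.33 from left to right, and mitochondrial medians 0.04, -0.08 and 0.08.

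Per kilobase of the principal transcript in GENCODE (not necessarily the annotation the authors counted on), Gars had the highest level of the set in every group, with 207 ± 0.994 CPM per kb in SIS3_TGFb, 119 ± 3.53 in TGFb and 132 ± 4.76 in Ctrl. Sars came next in every group, followed by Wars and then Nars in SIS3_TGFb and by Kars in TGFb and in Ctrl. Tarsl2 was last of the cytosolic members, with 3.12 ± 0.431 CPM per kb in SIS3_TGFb, 3.10 ± 0.174 in TGFb and 2.64 ± 0.303 in Ctrl. Among mitochondrial members Tars2 was highest, with 16.5 ± 0.793 CPM per kb in SIS3_TGFb, 14.4 ± 0.797 in TGFb and 13.6 ± 1.06 in Ctrl, and Mars2 lowest, with 0.562 ± 0.0619, 0.558 ± 0.0201 and 0.655 ± 0.0177 in the same groups. The order depends on the transcript chosen for the length.

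Eprs and Pars2, for glutamate with proline and for mitochondrial proline, fall outside the symbol rule and are not counted above. Eprs averaged 425 ± 11.4 CPM in SIS3_TGFb, 257 ± 8.04 CPM in TGFb and 277 ± 6.34 CPM in Ctrl, and rose by log2 0.73 ± 0.037 in SIS3_TGFb versus TGFb (adjusted p = 6.4e-10). Pars2, at a mean of 6.62 CPM in SIS3_TGFb and 4.84 CPM in TGFb, rose by 0.45 ± 0.142 (adjusted p = 0.018). DESeq2 called only 1 of these 2 genes higher. Some members overlap another gene in RefSeq: Aars with Ddx19b over 3974 bases, Mars1 with Ddit3 over 71 bases, Iars2 with Rab3gap2 over 115 bases and Hars with Hars2 over 4 bases. The labels' protocol describes no step that marks strand, so reads in such stretches could be assigned to either gene and these values are uncertain to that extent. Ddx19b averaged 53.6 CPM in SIS3_TGFb, 45.4 CPM in TGFb and 39.9 CPM in Ctrl, and Ddit3 127 CPM, 19.4 CPM and 24.7 CPM in the same groups. The part of these reads in the Aars and Mars1 values was not tested.

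Other genes of tRNA charging and translation were taken as lists by function, to be read against the 21.2% of all genes tested that rose and the 20.6% that fell in SIS3_TGFb versus TGFb. The scaffold genes of the multisynthetase complex, Aimp1, Aimp2 and Eef1e1, had log2 changes of 0.08, -0.02 and -0.15 in SIS3_TGFb versus TGFb; 0 of 3 rose and 0 fell, also at an unadjusted p and in DESeq2. In TGFb versus Ctrl Aimp2 rose by 0.27 ± 0.058 and Eef1e1 fell by 0.58 ± 0.086. Of 10 accessory enzymes of charging, 1 rose, Pstk (log2 0.90 ± 0.156), which phosphorylates seryl-tRNA for selenocysteine, and 1 fell, Mtfmt (-0.35 ± 0.080), which formylates the initiator tRNA of mitochondria. Of 23 genes of tRNA transcription and maturation 5 rose and 9 fell (median -0.07; 3 and 5 in DESeq2), among them Xpot, the tRNA exporter (0.86 ± 0.036), Trnt1, which adds the CCA end (0.30 ± 0.053), and the RNA polymerase III subunit Polr3g (-0.66 ± 0.084). Of 20 cytosolic translation factors 4 rose and 10 fell (median -0.10), with rises of Eif5 (0.56 ± 0.036) and Eif2s2 (0.55 ± 0.041) and falls of Eif4g1 (-0.48 ± 0.035) and Eif4a1 (-0.31 ± 0.036). Of 11 mitochondrial translation factors 4 rose and 2 fell (median 0.21), Mtif2 (0.29 ± 0.057) and Mtrf1 (0.51 ± 0.126) among the rises and Tufm (-0.18 ± 0.047) and Gfm1 (-0.18 ± 0.057) the falls.

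Genes that supply amino acids mostly rose. Of 14 amino acid transporters tested 11 rose and 1 fell in SIS3_TGFb versus TGFb (median 0.53), led by Slc1a4 (2.07 ± 0.049) and by Slc7a5 (1.27 ± 0.037) and Slc3a2 (1.19 ± 0.038), the subunits of the leucine carrier; Slc6a9, the glycine carrier, rose by 1.32 ± 0.065, and Slc7a6 fell by 0.14 ± 0.051 (not called in DESeq2). Of 17 enzymes of amino acid and one-carbon synthesis 14 rose and 1 fell (median 0.65), among them Gpt2 (2.01 ± 0.072), Asns (0.89 ± 0.038), Mthfd2 (0.84 ± 0.040) and Shmt2 (0.65 ± 0.034), with Got2 lower (-0.13 ± 0.034). Of 18 regulators of the ATF4 pathway 11 rose and 3 fell (median 0.77). Atf4 averaged 504 ± 16.2 CPM in SIS3_TGFb, 248 ± 8.31 CPM in TGFb and 323 ± 8.01 CPM in Ctrl, a rise of log2 1.02 ± 0.038 over TGFb (adjusted p = 2.2e-11) and a fall of 0.38 ± 0.038 in TGFb versus Ctrl. Ddit3 and Cebpg, partners of ATF4 family factors, rose by 2.71 ± 0.072 and 1.38 ± 0.046, while Trib3 and Chac1, also known ATF4 targets, fell by 1.44 ± 0.046 and 1.26 ± 0.110 after log2 rises of 3.37 and 1.48 in TGFb versus Ctrl. In TGFb versus Ctrl 4 transporters rose and 4 fell, 2 synthesis enzymes rose and 5 fell, and 5 ATF4 regulators rose and 6 fell, of 14, 17 and 18 tested, where 17.9% of all genes tested rose and 16.4% fell. Promoters with TGATGNAA numbered 4 of 16 among the ATF4 regulators, 4 of 15 among the synthesis enzymes and 2 of 11 among the transporters, 1 of 16 among the cytosolic translation factors and 0 of 9 among the mitochondrial ones, against 2.82% of tested genes. Among the list genes that hold the letters, Trib3, Chac1 and the translation factor Eif2s3x (-0.14) fell in SIS3_TGFb versus TGFb. All the others rose, Asns and Slc1a4 among them. The part of the letters in these changes was not tested.

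**Figure D5:**
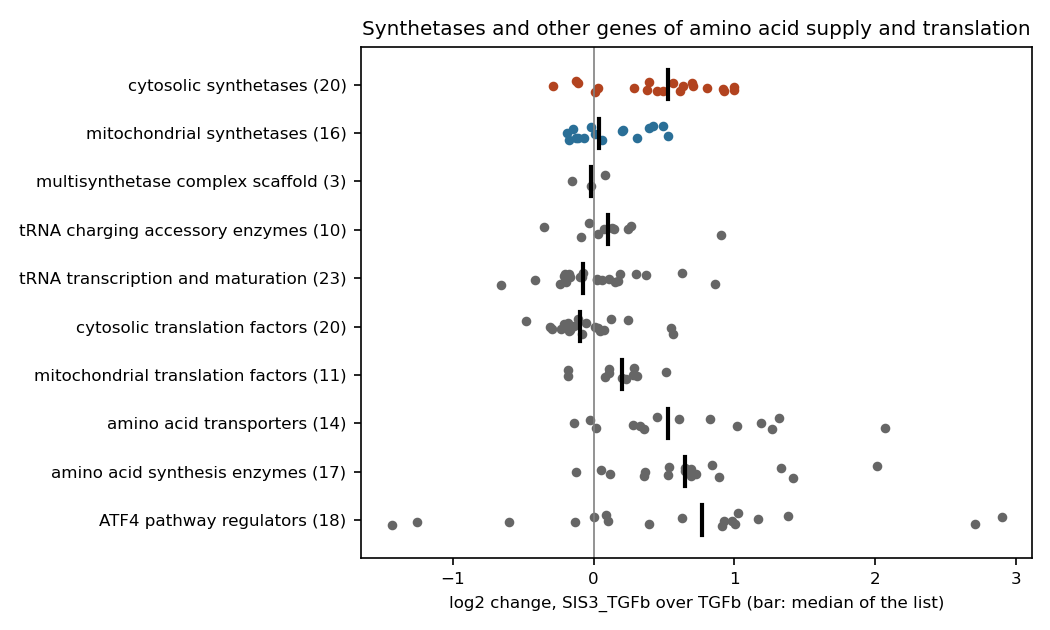
Log2 change in SIS3_TGFb over TGFb of the synthetases and of 8 lists of related genes (points are genes, with small vertical scatter; black bars are list medians; numbers are genes tested). Medians of the cytosolic synthetases, transporters, synthesis enzymes and ATF4 regulators are 0.53, 0.53, 0.65 and 0.77, and those of the scaffold, tRNA maturation and cytosolic translation factor lists are -0.02, -0.07 and -0.10.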

How the data were processed

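The authors deposited expected counts (reads estimated for each gene, without scaling for depth) in 1 table. The values themselves give this unit, since some are not whole numbers. RSEM, Bowtie2, HISAT2, DESeq2, StringTie and Cufflinks, with builds mm10 and GRCm38, are named in the submitters' processing notes. The annotation, and the role and version of each tool, were not given in the sources used here. Per the labels' protocols, libraries came from 1 µg RNA and were read as 100 bp pairs.

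Expected counts were rounded. Genes were filtered with filterByExpr of edgeR (minimum count 10, minimum total 15), leaving 12212, scaled by TMM and fitted over all 9 libraries with edgeR 4.0.16 (glmQLFit, glmQLFTest, R 4.3.3), with two-sided p-values adjusted by Benjamini-Hochberg over those genes. The step was tested on simulated data, with 66 or 67 of the 12212 genes changed at each fold. It recovered 44.8% of 1.25-fold, 79.1% of 1.5-fold and 93.9% of 2-fold changes in SIS3_TGFb versus TGFb. In TGFb versus Ctrl it recovered 52.2%, 61.2% and 86.4%, and in SIS3_TGFb versus Ctrl 44.8%, 73.1% and 89.4%. Small changes can thus be missed. Far more genes passed in the real comparisons than were changed in the simulation, and the rates cover genes of all count levels. They are therefore not the rates for the synthetases. A gene rose or fell at an adjusted p below 0.05. Each SE of a gene was taken as the absolute log2 change over the root of the F statistic. For a difference between the members of a pair, the SE was the root of the summed squares of both SEs. That takes the errors of both genes as independent. Promoters, positions and overlaps come from RefSeq (GRCm38.p6).

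Members follow the symbol rule (a 1-letter amino acid code and "ars", with an optional 1 or 2, plus Farsa, Farsb and Tarsl2). Members, lists and tests were chosen with earlier results of these data known. Values per library are given for the members with the smallest p in each class (8 cytosolic and 6 mitochondrial in SIS3_TGFb versus TGFb, 4 of each in TGFb versus Ctrl) and those that changed against their class; list genes are up to 4 with the smallest p and up to 2 against the list. Alternatives were DESeq2 (1.42.0) and its size factors, other scalings, no filter, a replicate block, the 2 groups alone, leaving out Gars and Kars, and leaving out each library. The list genes come from general knowledge. Some genes that these rules take are counted and not reported here by name.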

Additional observations from a re-analysis of the deposited data

How the results depend on the processing

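The 15 cytosolic rises in SIS3_TGFb versus TGFb were called whichever library was left out, and the 12 cytosolic falls in TGFb versus Ctrl numbered 11 to 12. Over members, comparisons and settings that leave out a library, 918 calls kept direction and side of the threshold, 27 were lost and 3 gained; under the other settings 715 kept both, 11 were lost and 13 gained. Cytosolic falls in SIS3_TGFb versus TGFb numbered 1 in place of 2 with no scaling factors and without Gars and Kars (a setting that omits Kars itself), and 1 to 2 without single libraries. Mitochondrial falls in TGFb versus Ctrl numbered 0 in DESeq2 and with only the 2 groups compared, 1 with no filter, 3 with upper-quartile or no scaling factors, and 0 to 2 without single libraries, in place of 2. Mitochondrial falls in SIS3_TGFb versus Ctrl numbered 1 with no scaling factors and in DESeq2, 3 with DESeq2 size factors or upper-quartile factors, and 1 to 3 without single libraries, in place of 2. The cause was not tested. Leaving out the TMM factors shifted the median of all genes by 0.08 in SIS3_TGFb versus TGFb.

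Same-numbered libraries of different groups had deviations that correlated between -0.147 and 0.126, and differently numbered ones between -0.163 and 0.145. No pairing by number was seen, but with 3 libraries per group a weak one could go unseen. With the replicate number as a block, 15 cytosolic members rose and 2 fell in SIS3_TGFb versus TGFb, 12 fell in TGFb versus Ctrl, and no count of either class changed in the 3 comparisons.

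The sign changed 41 times, in 12 members, always with a call in neither setting and a size of at most 0.11. In SIS3_TGFb versus TGFb the log2 changes were 0.0185 for Iars2 and 0.0656 for Wars2 with no scaling factors, -0.0012 and -0.0041 for Mars2, and -0.0022 and -0.0047 for Tarsl2, with DESeq2 size factors and the DESeq2 test. Without single libraries they ran from -0.0215 to 0.1141 for Fars2, -0.0848 to 0.0651 for Mars2, -0.1105 to 0.0675 for Tarsl2 and -0.0502 to 0.0219 for Wars2. In TGFb versus Ctrl upper-quartile factors gave -0.0182 for Lars, -0.0313 for Lars2, -0.0318 for Wars2 and -0.0277 for Yars2, and no scaling factors -0.0129 for Lars2, -0.0134 for Wars2 and -0.0098 for Yars2. Without single libraries the ranges there were -0.1287 to 0.0349 for Ears2, -0.0538 to 0.0042 for Kars, -0.0019 to 0.0361 for Lars, -0.0365 to 0.0766 for Lars2, -0.0800 to 0.0012 for Sars, -0.0725 to 0.1091 for Wars2 and -0.0425 to 0.0467 for Yars2. In SIS3_TGFb versus Ctrl Farsb was at -0.0011 with DESeq2 size factors, -0.0186 with upper-quartile factors and -0.0035 in DESeq2, with a range of -0.0145 to 0.0502 without single libraries. Wars2 was at 0.0521 with no scaling factors, with a range of -0.0911 to 0.0907. Mitochondrial members had lower counts and a larger median SE than cytosolic ones, so a missed threshold there does not show an unchanged level.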
